A study of Mus musculus with 37 samples.

Results

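The 10 neutrophil granule and alarmin genes described here are Mpo, Elane, Prtn3, Ltf, Camp, Ngp, Mmp8, Retnlg, S100a8 and S100a9. They were taken by symbol from the 24421 gene rows of every liver library, and all 10 were present. The members were chosen with their levels in these libraries already known, so their levels and fold changes are a description with no p-value for a single member. In the main fit, how many members are called or do not overlap is given only beside the share of all genes. For other fits the number of all genes called is given in the closing sections. Counts without single livers and counts at an unadjusted p have no such share. Nothing is read from any of these counts. RNA was sequenced from the livers of 37 C57BL/6 mice aged 2 months, after removal of ribosomal RNA, and each library was counted per gene. STAT5B is a transcription factor that signals downstream of growth hormone and cytokine receptors, and the mutant mice carried a substitution of a tyrosine in its SH2 domain, to phenylalanine (Y665F) or to histidine (Y665H). The males were 6 wild-type (WT), 9 Y665F and 4 Y665H mice, and each of the 3 genotypes had 6 females. The labels do not say whether mutant mice were heterozygous or homozygous. The labels name no tissue-restricted driver, and bulk liver RNA holds transcripts of liver cells and of the blood cells in the tissue. The protocols name library kits of 2 makers without saying which libraries were made with which, so a kit that follows a group and the group cannot be told apart.

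Neutrophils are made in the bone marrow, and their granule proteins are transcribed in waves. Promyelocytes transcribe the genes of the primary granules, later precursors transcribe those of the secondary and tertiary granules, and mature cells keep granule proteins after most of these transcripts have fallen. S100a8 and S100a9 stay abundant in mature neutrophils and form calprotectin, an alarmin that signals through pattern recognition receptors. Among the early genes, Mpo encodes myeloperoxidase, Elane neutrophil elastase and Prtn3 proteinase 3. Of the late genes, Ltf encodes lactoferrin, Camp the cathelicidin peptide precursor, Ngp neutrophilic granule protein, Mmp8 neutrophil collagenase and Retnlg resistin-like gamma.

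Several members are neighbours in the genome (build mm10, GENCODE M21 gene bounds). S100a8 (chr3:90668978-90670035, plus strand) and S100a9 (chr3:90692632-90695721, minus strand) lie 22596 bases apart. Prtn3 (chr10:79874476-79883174, plus strand) and Elane (chr10:79886247-79888215, plus strand) are separated by 3072 bases. Chromosome 9 holds Mmp8 (chr9:7558456-7568485), Camp (chr9:109847379-109849617, minus strand), Ngp (chr9:110419747-110423012) and Ltf (chr9:111019271-111042767). Mpo is at chr11:87793581-87804413 and Retnlg at chr16:48872621-48874496, both on the plus strand. Mpo overlaps the antisense transcript Gm11505, and the longest form of Prtn3 overlaps Plppr3 on the minus strand. The strand setting of the authors' counting is not given in the sources used here, so reads of such overlaps cannot be told apart.

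The promoters of 4 members are shown because Ltf and Ngp had the most similar profiles over the livers to the rest of the members, and Elane and Prtn3 were the early genes that stood apart from WT in Y665H males. Each is the 250 bases before the gene start in RefSeq (GRCm38.p6), all on the plus strand, at chr9:111019042-111019291 (Ltf), chr9:110419558-110419807 (Ngp), chr10:79886062-79886311 (Elane) and chr10:79879417-79879666 (Prtn3). Capitals mark matches to a C/EBP motif, TTGCNNAA, or a PU.1 motif, GAGGAA, on either strand. C/EBP and PU.1 are transcription factors of granulocyte development.
Ltf: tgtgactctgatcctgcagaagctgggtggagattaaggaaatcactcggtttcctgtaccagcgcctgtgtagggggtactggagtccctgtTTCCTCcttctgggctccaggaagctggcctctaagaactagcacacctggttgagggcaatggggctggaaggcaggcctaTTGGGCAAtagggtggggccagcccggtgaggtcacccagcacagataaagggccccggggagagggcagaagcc
Ngp: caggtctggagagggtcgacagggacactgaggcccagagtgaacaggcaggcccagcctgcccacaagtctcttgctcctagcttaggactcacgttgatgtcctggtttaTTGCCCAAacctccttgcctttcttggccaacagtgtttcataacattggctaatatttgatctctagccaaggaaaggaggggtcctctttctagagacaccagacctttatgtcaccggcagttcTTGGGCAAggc
Elane: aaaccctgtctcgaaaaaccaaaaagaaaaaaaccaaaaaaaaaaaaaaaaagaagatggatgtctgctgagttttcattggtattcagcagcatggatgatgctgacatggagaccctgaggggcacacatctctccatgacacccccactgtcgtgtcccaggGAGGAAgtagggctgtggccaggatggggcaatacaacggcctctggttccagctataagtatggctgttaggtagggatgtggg
Prtn3: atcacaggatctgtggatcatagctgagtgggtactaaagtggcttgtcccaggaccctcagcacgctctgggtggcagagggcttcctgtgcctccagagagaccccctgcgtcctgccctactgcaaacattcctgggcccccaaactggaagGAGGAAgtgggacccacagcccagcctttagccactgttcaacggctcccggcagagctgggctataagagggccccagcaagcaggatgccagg
In these windows Ltf had a C/EBP match 75 and a PU.1 match 157 bases before the start, and Ngp had C/EBP matches at 138 and 11 bases. The Elane window had a PU.1 match at 85 bases and the Prtn3 window at 95 bases. Over the 10 members, 5 windows held the C/EBP motif and 6 the PU.1 motif, against 9.56% and 23.3% of all 32851 promoters of the same length. For Mmp8 and Retnlg the bases after the RefSeq start did not match a GENCODE transcript. Both windows are among those with the C/EBP motif, and that of Mmp8 also held the PU.1 motif. The STAT motif TTCNNNGAA was found in 0 of the 10 windows and in 7.02% of all promoters. A match is a description of the letters and not of binding.

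All of these transcripts were rare in liver. Gene counts per library ranged from 49141951 to 73937726 in males and from 24388434 to 40864173 in females, and the 10 members together drew 33 to 56 counts per library in WT males and 149 to 3447 in Y665F males. Values are given as CPM, a gene's count relative to the total gene count of its library, with totals scaled by the trimmed mean of M-values (TMM). Apart from Prtn3, the members summed to 0.461, 0.631 and 0.920 CPM in WT males (lowest, median and highest library). The sums were 2.14, 2.69 and 12.6 CPM in Y665F males and 0.647, 1.06 and 2.45 CPM in Y665H males. Every Y665F male therefore lay above every WT male, and the Y665H males overlapped the WT males. In females the sums were 0.471, 0.890 and 2.63 CPM in WT, 1.25, 1.80 and 8.25 CPM in Y665F and 0.507, 0.764 and 1.01 CPM in Y665H. Y665F females overlapped WT females, and each lay above every Y665H female. In bulk tissue, fewer cells of a type and less RNA per cell cannot be told apart, and the same holds for more. Intervals on counts, and the limit of 3 counts that a count of 0 allows, cover counting error only.

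**Figure D1:**
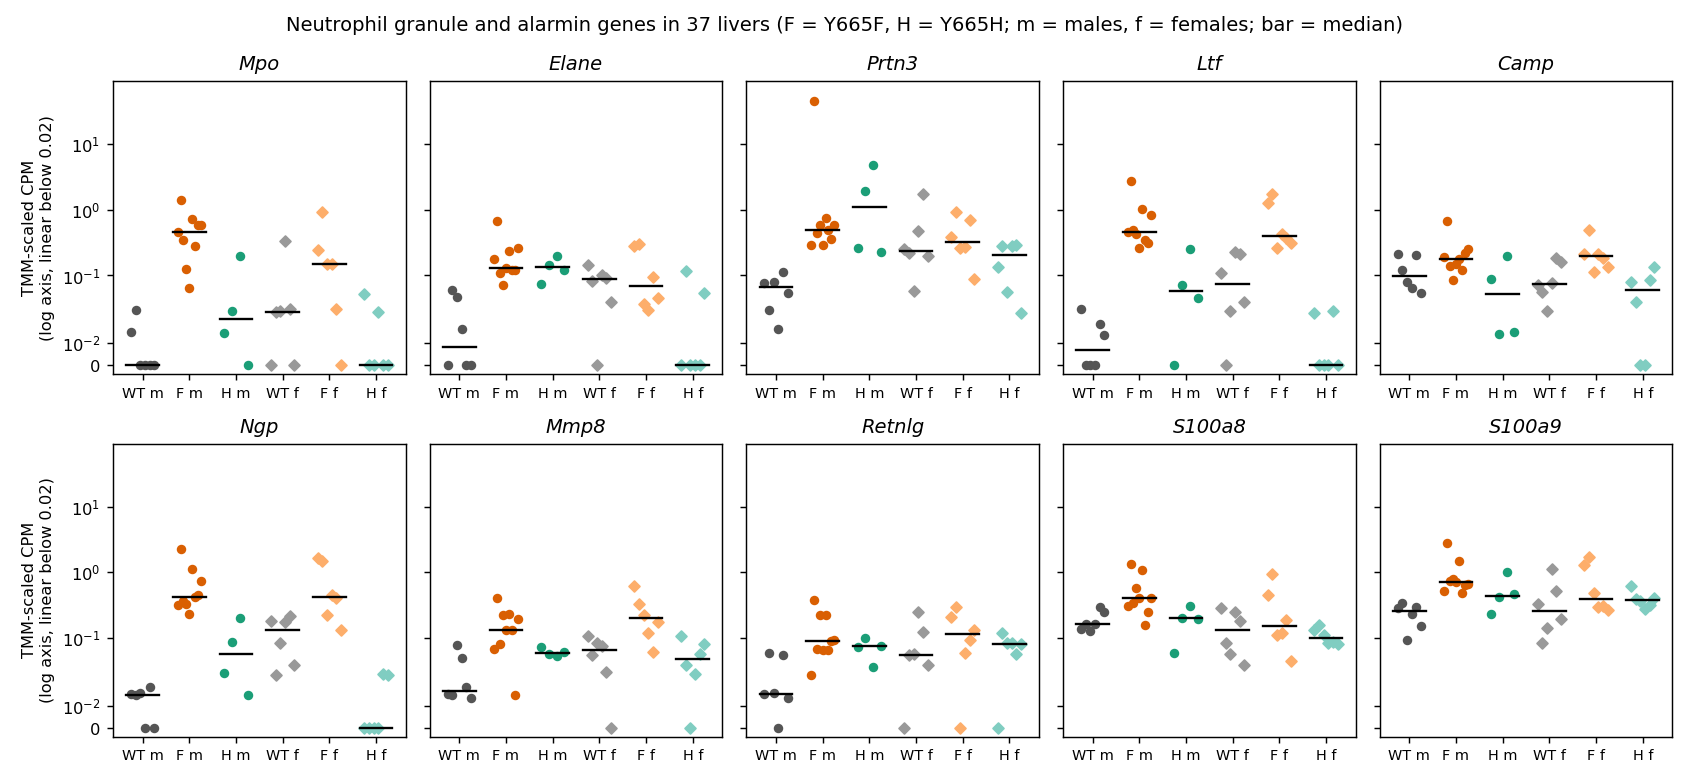
CPM of each of the 10 genes in each of the 37 livers (y axis, logarithmic, linear below 0.02 CPM), grouped on the x axis by genotype and sex. Points are single livers and bars are group medians. The Prtn3 panel holds a Y665F male at 44.5 CPM, far above the other 36 livers.

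Mpo was close to undetected in WT males, at 0, 0 and 0.03 CPM (lowest, median and highest of 6). In the 9 Y665F males it was at 0.0656, 0.457 and 1.39 CPM. The 4 Y665H males held 0.0147, 0.0287, 0.200 and 0 CPM in replicates 1 to 4. The Y665F and WT males did not overlap, whereas only Y665H male replicate 3 was above the highest WT male. WT females had 0, 0.0281 and 0.329 CPM, Y665F females 0, 0.150 and 0.931 CPM and Y665H females 0, 0 and 0.0531 CPM, and the 3 female groups overlapped. The log2 fold change against WT of the same sex was 5.61 (SE 0.93) in Y665F males, 2.48 (SE 1.50) in Y665H males, 1.66 (SE 0.91) in Y665F females and -2.27 (SE 1.54) in Y665H females. Because WT males had 3 Mpo counts in all, the fitted value is no bound. The ratio of summed counts, 312 against 3 and scaled for depth, was 63.4 with an exact 95% counting interval of 21.5 to 309. Mpo moved with single livers in all 4 contrasts with WT. Without WT male replicate 2 its log2 fold change was 6.46 in Y665F males and 3.34 in Y665H males, and without Y665H male replicate 3 the latter was 0.73. Leaving out WT female replicate 4 gave 3.59 in Y665F females and -0.34 in Y665H females, leaving out Y665F female replicate 2 gave 0.55 in Y665F females, and leaving out Y665H female replicate 1 gave -3.28 in Y665H females.

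Elane was at 0, 0.0082 and 0.06 CPM in WT males and at 0.0706, 0.131 and 0.663 CPM in Y665F males. Y665H males held 0.0735, 0.144, 0.200 and 0.122 CPM in replicates 1 to 4. Each mutant male, of either substitution, exceeded every WT male. In females Elane was at 0, 0.0876 and 0.145 CPM in WT, 0.0301, 0.069 and 0.299 CPM in Y665F and 0, 0 and 0.119 CPM in Y665H, with 4 of 6 Y665H females at 0. All 3 female groups overlapped. Fitted log2 fold changes were 3.16 (SE 0.65) in Y665F males, 2.53 (SE 0.79) in Y665H males, 0.77 (SE 0.76) in Y665F females and -1.55 (SE 1.03) in Y665H females. Without WT male replicate 2 the male values of Elane were 3.76 and 3.14, and without Y665H female replicate 2 the Y665H female value was -2.54. In contrast to Mpo, the Elane median of Y665H males was as high as that of Y665F males, at 0.133 against 0.131 CPM.

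Prtn3 ranged over the widest span of the 10 genes. WT males had 0.0164, 0.0658 and 0.113 CPM. Y665F males had 0.291, 0.496 and 44.5 CPM, and the second highest liver was at 0.734 CPM. Y665H males had 0.265, 1.95, 4.75 and 0.228 CPM in replicates 1 to 4. Thus every mutant male was above every WT male, and 3 livers, Y665F male replicate 2 and Y665H male replicates 2 and 3, stood above the rest of the mutant males. Female levels were 0.0572, 0.237 and 1.72 CPM in WT, 0.0894, 0.327 and 0.931 CPM in Y665F and 0.0271, 0.205 and 0.287 CPM in Y665H, and these groups overlapped. The log2 fold change was 6.40 (SE 1.38) in Y665F males and 4.82 (SE 1.55) in Y665H males. It was 2.92 in Y665F males without Y665F male replicate 2, and in Y665H males 3.70 without Y665H male replicate 3 and 1.97 without the 3 high livers. In females it was -0.13 (SE 1.47) for Y665F and -1.51 (SE 1.70) for Y665H, and without WT female replicate 5, the WT female at 1.72 CPM, these became 0.85 and -0.53. Plppr3, which the files list under its older symbol Lppr3, was at 5.07 CPM in Y665F male replicate 2, and the other 8 Y665F males had a highest value of 2.95 CPM. It reached 5.23 CPM in Y665F female replicate 6, where Prtn3 was at 0.0894 CPM. The part of overlapping reads in the Prtn3 values was not tested.

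Among the late genes, Ltf and Ngp had the largest differences. Ltf was at 0, 0.00686 and 0.0307 CPM in WT males, 0.262, 0.457 and 2.70 CPM in Y665F males and 0, 0.0718, 0.254 and 0.0457 CPM in Y665H male replicates 1 to 4. Y665F males lay clear of WT males, and 3 of 4 Y665H males exceeded the highest WT male. WT females had 0, 0.0739 and 0.228 CPM, Y665F females 0.260, 0.397 and 1.73 CPM and Y665H females 0, 0 and 0.0287 CPM. Ltf was thus higher in each Y665F female than in any WT female, and 4 of 6 Y665H females had no Ltf count. The log2 fold changes of Ltf were 5.86 (SE 0.83) in Y665F males, 2.78 (SE 1.28) in Y665H males, 2.76 (SE 0.72) in Y665F females and -3.15 (SE 1.53) in Y665H females. Without Y665H male replicate 3 the Y665H male value was 1.68. As ratios of summed counts, Y665F against WT males gave 69.9 (459 against 4 counts, interval 27.1 to 258). Y665H against WT females gave 0.0908 (2 against 21 counts, interval 0.0103 to 0.372).

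Ngp followed Ltf closely. Its levels were 0, 0.0152 and 0.0188 CPM in WT males, 0.229, 0.429 and 2.24 CPM in Y665F males and 0.0294, 0.0861, 0.200 and 0.0152 CPM in Y665H male replicates 1 to 4. Again the Y665F males did not overlap the WT males, and 3 of 4 Y665H males exceeded the highest WT male. In females Ngp was at 0.0277, 0.131 and 0.215 CPM in WT, 0.134, 0.428 and 1.64 CPM in Y665F and 0, 0 and 0.0287 CPM in Y665H. A single Y665F female, replicate 6, lay within the WT range, and 4 of 6 Y665H females had no Ngp count. The fitted log2 differences for Ngp were 5.72 (SE 0.79) in Y665F males, 2.64 (SE 1.23) in Y665H males, 2.57 (SE 0.66) in Y665F females and -3.35 (SE 1.40) in Y665H females. Leaving out Y665H male replicate 3 gave 1.84 in Y665H males. Summed counts were 420 against 4 for Y665F against WT males, a ratio of 64.0 (interval 24.8 to 236). For Y665H against WT females they were 2 against 24, a ratio of 0.0795 (interval 0.00910 to 0.320).

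Camp and Mmp8 differed less. Camp had 0.0548, 0.0997 and 0.215 CPM in WT males and 0.0847, 0.180 and 0.679 CPM in Y665F males, which overlapped, and its fitted difference was 0.85 (SE 0.44), or 0.46 without Y665F male replicate 2. In Y665H males Camp was at 0.0882, 0.0144, 0.200 and 0.0152 CPM, all within or under the WT range, with a fitted difference of -0.68 (SE 0.64), or -1.57 without Y665H male replicate 3. In Y665F females Camp differed from WT by 1.29 (SE 0.64), more than in Y665F males, and 4 of 6 lay above every WT female. Camp was the only member whose lowest median of the 6 groups was in Y665H males. Mmp8 was at 0.0137, 0.0171 and 0.0794 CPM in WT males and 0.0149, 0.134 and 0.414 CPM in Y665F males, with 7 of 9 above the highest WT male (log2 fold change 2.30, SE 0.54). The 4 Y665H males had Mmp8 between 0.0544 and 0.0735 CPM, inside the WT range. Among females Mmp8 reached its highest level of all 37 livers, 0.628 CPM in Y665F female replicate 1, and 5 of 6 Y665F females exceeded the highest WT female (log2 fold change 2.02, SE 0.62). Y665H females had log2 differences of -0.64 (SE 0.81) for Camp and -0.19 (SE 0.81) for Mmp8.

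The alarmin genes S100a8 and S100a9 were detected in every liver. S100a9 was at 0.0953, 0.261 and 0.345 CPM in WT males and 0.482, 0.705 and 2.75 CPM in Y665F males. Y665H males had 0.235, 0.416, 0.998 and 0.472 CPM in replicates 1 to 4. All Y665F males and 3 of 4 Y665H males exceeded the highest WT male. S100a9 levels in females were 0.0832, 0.261 and 1.14 CPM in WT, 0.268, 0.397 and 1.73 CPM in Y665F and 0.282, 0.381 and 0.610 CPM in Y665H, and these groups overlapped. S100a8 was at 0.127, 0.164 and 0.301 CPM in WT males and 0.161, 0.409 and 1.34 CPM in Y665F males, with 7 of 9 above the highest WT male, while Y665H males spanned 0.0588 to 0.308 CPM. The Y665F male differences were 1.50 (SE 0.43) for S100a8 and 2.04 (SE 0.47) for S100a9 on the log2 scale, both far smaller than those of Ltf, Ngp and Mpo. In Y665F females they were 1.03 (SE 0.63) and 0.82 (SE 0.55), and 0.29 and 0.35 without Y665F female replicate 2. Without WT female replicate 4 they were 1.28 and 1.54. Retnlg, a small secreted protein of the resistin family, was at 0, 0.0156 and 0.06 CPM in WT males and 0.0277, 0.0893 and 0.381 CPM in Y665F males (log2 fold change 2.26, SE 0.61). Y665H males had Retnlg between 0.0363 and 0.101 CPM, and female log2 differences were 0.47 (SE 0.69) for Y665F and -0.46 (SE 0.75) for Y665H. Without WT female replicate 4 the Retnlg differences were 1.18 for Y665F and 0.25 for Y665H, a change of direction, and without Y665F female replicate 2 the former was 0.04.

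Per kilobase of exon, S100a9 had the highest median of the 10 genes in each of the 6 groups, at 0.499 CPM per kb in WT males and 1.35 in Y665F males. S100a8 was second in 4 groups, at 0.237 CPM per kb in WT males. Mpo and Ltf were the lowest in WT males by the same scale, at 0 and 0.00199 CPM per kb, and reached 0.134 and 0.133 CPM per kb in Y665F males.

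**Figure D2:**
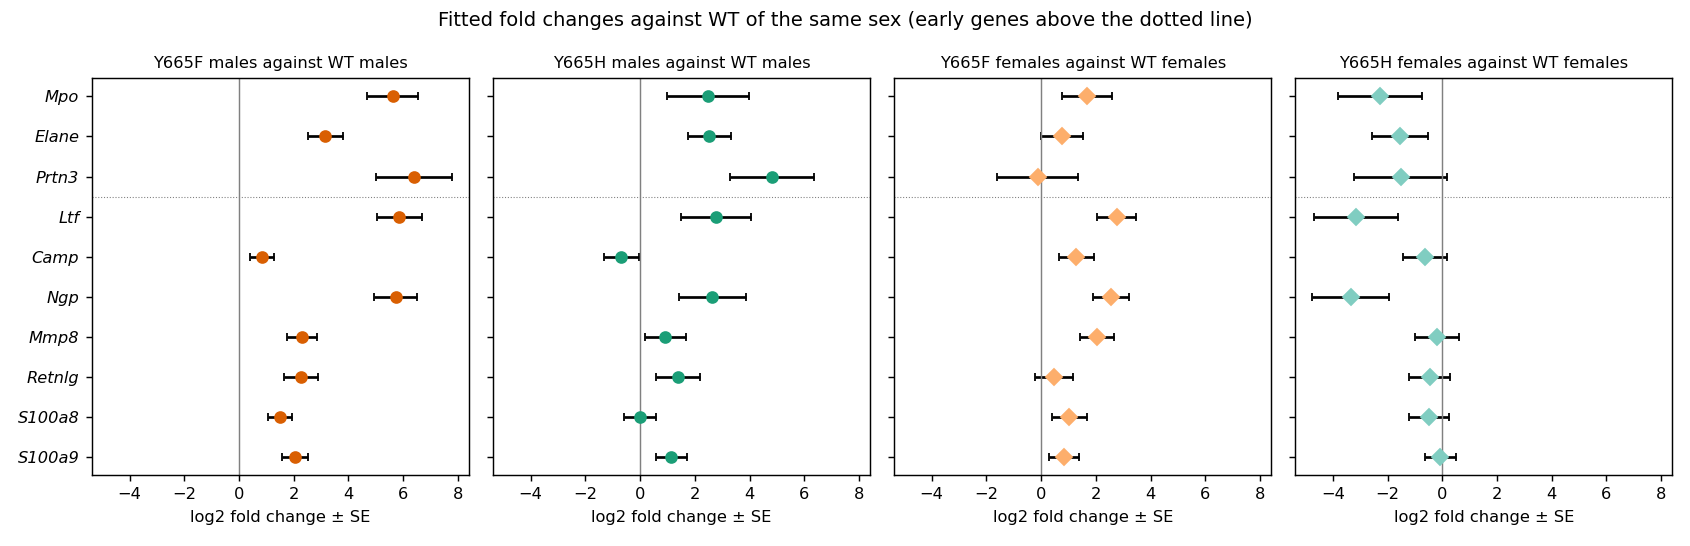
Fitted log2 fold change against WT of the same sex (x axis) for each gene (y axis, early genes above the dotted line), in a panel per mutant group. Points are edgeR estimates and bars are standard errors. All 10 points lie above 0 in Y665F males. All 10 lie under 0 in Y665H females, although S100a9 and Retnlg lie above 0 without WT female replicate 4, at 0.66 and 0.25, and Mmp8 without Y665H female replicate 3, at 0.08.

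Counted over the members, 9 of 10 were called higher in Y665F than WT males, beside 27.2% of the 15152 genes tested. Calls are at an adjusted p under 0.05 by edgeR's quasi-likelihood test. The levels of 6 members did not overlap between these groups, beside 14.2% of all genes. In Y665H males 2 members were called higher beside 5.22% of genes. The levels of 2 members, Elane and Prtn3, did not overlap with WT males, beside 6.75%. The count of 2 calls turned on single livers. It was 0 without WT male replicate 1, 4, 5 or 6 or Y665H male replicate 2 or 3, 1 without WT male replicate 2 or 3 or Y665H male replicate 4. In thinned libraries the count was 0, with 6 members tested, Elane not among them. In Y665F females 3 members were called higher beside 17.8%, and the levels of 1, Ltf, did not overlap, beside 9.09%. In Y665H females 0 of 10 were called by edgeR beside 7.5% called in either direction, while 2 had an unadjusted p under 0.05 and DESeq2 called 2. The median log2 fold change over the 10 members was 2.73 in Y665F males, 1.94 in Y665H males, 1.16 in Y665F females and -1.08 in Y665H females. The medians over all genes were -0.01, 0.01, -0.02 and 0.00. The member medians hold all livers, including those on which values of single members depended, as given above. All members passed the filter on low counts, and several passed it through the Y665F groups where they were high. Both mutant groups of a sex were set against the same WT livers, so their fold changes share those controls.

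The 2 substitutions differed most in Ltf, Ngp and Mpo, and little in Elane among males. Against Y665F males, Y665H males were lower by a log2 difference of -3.13 (SE 0.79) for Mpo, -3.08 (SE 0.67) for Ngp and -3.07 (SE 0.69) for Ltf, but by -0.63 (SE 0.52) for Elane. Of the 4 Y665H males, replicate 3 was the highest for Mpo, Ngp and Ltf, at 0.200, 0.200 and 0.254 CPM. Values without it are not given for this comparison. Between these male groups 6 members were called lower beside 21.2% of genes, and Ngp and Ltf did not overlap beside 11.8%. Y665H females were lower than Y665F females by -5.92 (SE 1.01) for Ngp and -5.91 (SE 1.07) for Ltf. In that comparison 7 members were called lower beside 26% of genes, and Ngp and Ltf again did not overlap beside 10.9%. Without Y665F female replicate 2 the count was 3. S100a9, Prtn3 and Retnlg had log2 differences between -1.59 and -0.87 in both sexes. The male Prtn3 value of -1.59 includes Y665F male replicate 2 at 44.5 CPM. It goes against the Prtn3 medians, which were 1.11 CPM in Y665H and 0.496 CPM in Y665F males.

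Between WT females and WT males the share of members called was no larger than that of all genes, so no difference of the members as a group is read from it. Ngp was higher in each WT female than in any WT male (log2 difference 3.26, SE 1.16), and 4 of 6 WT females exceeded the highest WT male for Ltf (3.07, SE 1.27). In all 2 of 10 were called higher beside 26.8% of genes, and 1 did not overlap beside 15.7%. For the difference of the Y665F effect between the sexes, 1 member was called beside 16.1% of genes higher in males. The log2 difference of Prtn3 was 6.53 (SE 2.11), and it was 3.06 without Y665F male replicate 2. Without WT female replicate 5 it was 5.55, and the count was then 0. For Y665H, 0 members were called by edgeR beside 2.94%, with 5 at an unadjusted p under 0.05 and 1 called by DESeq2. The largest estimates for Y665H were 6.33 (SE 2.34) for Prtn3, 5.99 (SE 1.86) for Ngp and 5.94 (SE 1.99) for Ltf. Male libraries were deeper than every female library, so depth and sex cannot be told apart.

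Ordered by median, Ltf, Ngp and Mpo shared an order over the 6 groups, but for a tie. It ran from Y665F males through Y665F females, WT females, Y665H males and WT males to Y665H females. For Mpo the last 2 groups tied at a median of 0. Neighbours in this order overlapped, except Y665F and WT females for Ltf. For Prtn3 and Elane, Y665H males came first and Y665F males second. Camp, Mmp8 and Retnlg had their highest medians in Y665F females. S100a8 and S100a9 had theirs in Y665F males.

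Early and late genes were compared within each liver as the mean log2 CPM of Mpo, Elane and Prtn3 minus that of the 7 late genes, with its mean over all livers set to 0. Among males, WT livers had an index of -0.51 ± 0.28 (SD, n = 6), Y665F livers of 0.33 ± 0.66 (SD, n = 9) and Y665H livers of 0.83 ± 0.67 (SD, n = 4). Among females, WT livers averaged 0.14 ± 0.45 (SD, n = 6), Y665F livers -0.50 ± 0.45 (SD, n = 6) and Y665H livers -0.17 ± 0.48 (SD, n = 6). Mutant males were therefore higher than WT males, by 0.84 for Y665F and 1.34 for Y665H, and Y665F females were lower than WT females by a difference of -0.63. Without Prtn3 the Y665H male difference was 0.63 and the Y665F male difference 0.67, and without the 3 livers with high Prtn3 the Y665H male difference was 0.78. In counts, and leaving out Prtn3, the early genes Mpo and Elane made up 4.44% of member counts in WT males (11 of 248). Their share was 17.1% in Y665F males (440 of 2570) and 14.9% in Y665H males (48 of 323). In females the share was 13.0% in WT (31 of 239), 11.1% in Y665F (68 of 615) and 5.23% in Y665H (8 of 153). By this measure WT males and Y665H females had the lowest early shares. With Prtn3 counted, early genes held 34 of 271 counts in WT males, and their share was 61.5% in Y665F and 63.5% in Y665H males. In females it was then 38.1% in WT, 21.2% in Y665F and 22.9% in Y665H, so the order of the female groups depended on Prtn3. The pooled male shares of the mutants rest on few livers, since Y665F male replicate 2 held 2813 of 3400 early counts and Y665H male replicates 2 and 3 held 148 and 284 of 479. The median liver had 31.3% in Y665F males (range 20.1% to 81.6%), 53.9% in Y665H males (28.4% to 71.5%) and 11.1% in WT males (6.06% to 23.5%).

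**Figure D3:**
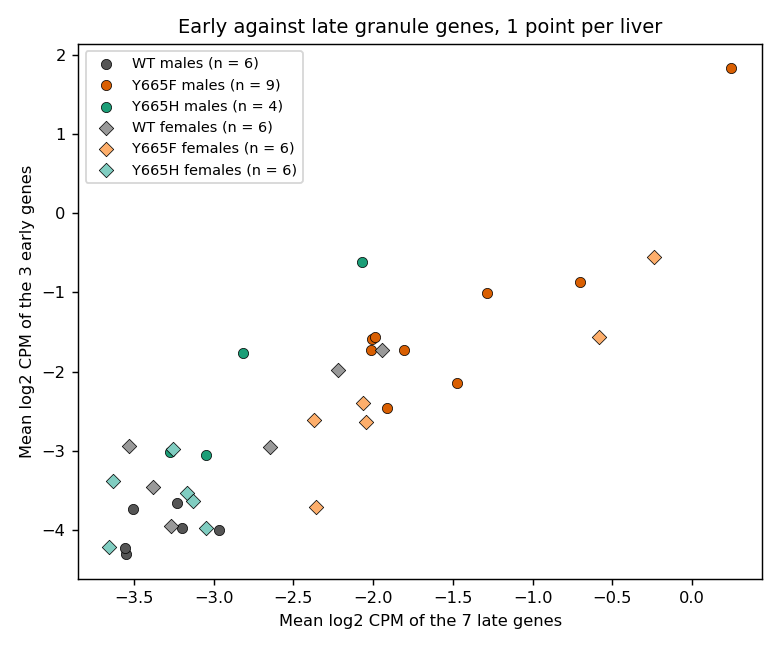
Mean log2 CPM of the 3 early genes (y axis) against that of the 7 late genes (x axis), with a point per liver and a colour per group. Y665F male replicate 2 is the point at the top right, with the highest early mean and an index of 1.72.

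The members did not spread evenly over the livers of a group. Y665F male replicate 2 was the highest of the 37 livers for 9 of 10 members and among the top 3 for all 10. Y665F female replicate 2 was among the top 3 for 9 members, and Y665F female replicate 1 for 4. For the 9 members it led, its level was 9.37 times that of the second highest liver for Prtn3, 2.21 times for Elane and between 1.23 (S100a8) and 1.59 (S100a9) times for the other 7. Without Y665F male replicate 2, all fitted differences of Y665F against WT males but those of Prtn3 moved by less than their SE, and 9 members were called.

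The 3 livers with the highest Prtn3 were also high for acute phase genes, which hepatocytes secrete in inflammation. Saa1, serum amyloid A1, was at 874 CPM in Y665F male replicate 2 and at 907 and 694 CPM in Y665H male replicates 2 and 3. The other 8 Y665F males had at most 35.2 CPM, and Y665H male replicates 1 and 4 had 27.2 and 54.0 CPM. WT female replicate 5, the next highest liver for Prtn3 at 1.72 CPM, had Saa1 at 46.4 CPM, where WT females ran from 19.3 to 51.6 CPM. Lcn2, lipocalin 2, which is both a granule protein of neutrophils and an acute phase product of hepatocytes, was at 256, 81.0 and 91.0 CPM in the same 3 livers. Elsewhere in the male groups, Lcn2 was between 13.3 and 35.3 CPM in Y665F, 3.95 and 3.94 CPM in the other Y665H and 1.28 to 2.86 CPM in WT males. These 3 were the livers above 500 CPM of Saa1. Without them the log2 difference of Y665H from WT males was 2.08 for Elane, 1.97 for Prtn3, 0.93 for both Ltf and Ngp and -0.06 for Mpo, which thus lost its direction. Prtn3, Ltf, Ngp and Mpo had been at 4.82, 2.78, 2.64 and 2.48 with all livers. The count of members called in Y665H males was then 0 of 9 tested. Over all genes 386 of 15081 were called there, against 1273 of 15152 with all livers. In Y665F males the differences without the 3 livers were 2.73 for Elane, 5.30 for Ltf, 5.25 for Ngp and 5.25 for Mpo. There 8 of 9 tested members were called, beside 8137 of 15081 genes in either direction. The part of the acute phase in the member levels was not tested.

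**Figure D4:**
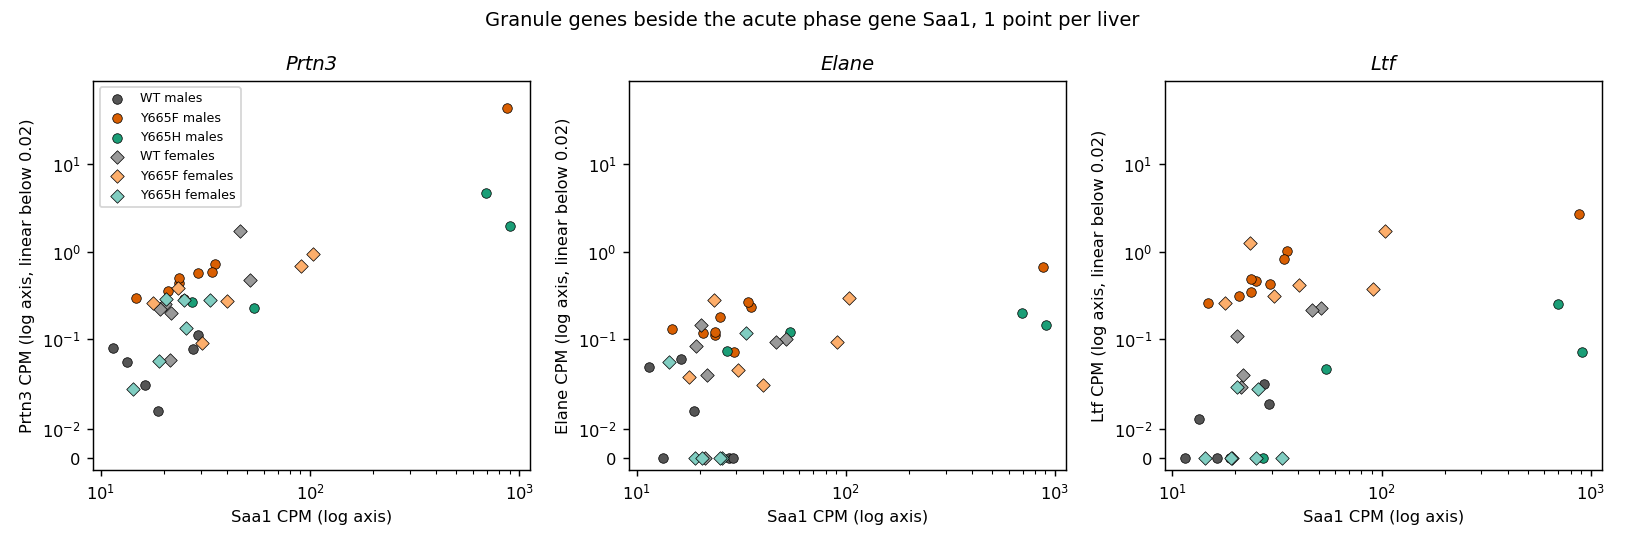
CPM of Prtn3, Elane and Ltf (y axes, logarithmic, linear below 0.02) against CPM of Saa1 (x axis, logarithmic), with a point per liver. The 3 livers right of 500 CPM of Saa1 are the 3 highest for Prtn3, while Ltf and Elane are also higher than in WT males in the Y665F males at low Saa1.

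Profiles over the 37 livers were compared by Pearson's r of log2 CPM, as a description, since points share groups and libraries. The members most like the mean of the other members were Ltf (r = 0.93) and Ngp (r = 0.92), and those least like it were Retnlg (r = 0.61) and Camp (r = 0.66). With group means subtracted, Ltf and Ngp stayed at 0.90 and 0.89, and Mmp8 was lowest at 0.44. Outside the members, the genes most like the members' mean were Pfkfb4 (r = 0.89), a glycolytic regulator, Chil3 (0.85), a chitinase-like protein of myeloid cells, and Cd177 (0.83), a neutrophil surface protein. Next came Itga4, Aldh18a1, Il7, Ano10, Slfn4, Itih3 and Ppbp, with r between 0.81 and 0.83. With group means subtracted, the 10 most alike included the acute phase genes Orm2 (r = 0.75), Hpx (0.73), Saa1 (0.72), Apcs (0.72) and Lrg1 (0.71). For Prtn3 alone, Isyna1 (r = 0.88), Hpx (0.87), Saa2 (0.86), Saa1 (0.83), Orm2 (0.82) and Lcn2 (0.82) led the list. To the mean of the other members Prtn3 had r = 0.72.

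Other genes of the granulocyte programme were read from lists of known genes, and calls are those of edgeR's quasi-likelihood test at a Benjamini-Hochberg adjusted p under 0.05. Every list count below stands against the share of all genes. In Y665F males 27.2% of genes were called higher and 25.3% lower, and in Y665F females 17.8% and 23.3%. In Y665H males 5.22% were called higher and 3.18% lower, and in Y665H females 3.1% were called lower. Of 10 other late granule genes tested, 7 rose and 1 fell in Y665F males, 2 rose in Y665H males, and 4 rose and 2 fell in Y665F females. The 2 in Y665H males became 1 without any of 7 single livers (WT replicates 2 to 6 and Y665H replicates 2 and 3). The 4 in Y665F females became 2 without WT female replicate 6 or Y665F female replicate 4 or 5, and the 2 that fell became 1 without Y665F female replicate 5. Their median log2 fold change was 0.82 in Y665F males, 0.02 in Y665H males, 0.55 in Y665F females and -0.26 in Y665H females, against medians of all genes between -0.02 and 0.01. Lcn2 rose by 4.64 (SE 0.77, adjusted p = 5.22e-06) in Y665F males, higher in 9 of 9, and by 3.47 without Y665F male replicate 2. Padi4, the enzyme that citrullinates histones in neutrophils, rose in Y665F females by 2.09 (SE 0.39, adjusted p = 4.78e-05). Mmp9, gelatinase B, fell there by 0.98 (SE 0.33, adjusted p = 0.0155). Of 8 promyelocyte and progenitor genes tested, 5 rose in Y665F males, led by Myb at 1.9 (SE 0.39, adjusted p = 0.000107), and 2 rose in Y665F females, led by the transcription factor Gfi1 at 1.72 (SE 0.40, adjusted p = 0.000706). The 2 of 8 in Y665F females is near the share of all genes. In thinned libraries fewer genes passed the filter, 5 of this list and 7 of the other late granule genes, of which 2 and 4 rose in Y665F males. With no filter 12 were tested and 8 rose. Cebpe, the factor needed for secondary granule genes, fell by 0.83 (SE 0.11, adjusted p = 8.75e-08) in Y665F males and by 0.43 (SE 0.13, adjusted p = 0.0102) in Y665F females. Cebpe was at 7.89 to 8.98 CPM in WT males and 2.93 to 6.21 CPM in Y665F males, and the groups did not overlap. WT males had 452 to 578 Cebpe counts per liver, where Ltf, Ngp and Mpo had 4, 4 and 3 counts over all 6 livers. Which cells hold the Cebpe reads was not tested. Ctsg, cathepsin G, a further early granule gene, was too low to test. It had 31 counts over the Y665F males, 5 over the Y665F females, 1 over the WT females and 0 in the WT male, Y665H male and Y665H female groups.

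Neutrophil surface and signalling genes also moved in Y665F mice. Of 12 tested, 10 rose and 1 fell in Y665F males, and 6 rose in Y665F females, while 3 rose in Y665H males, or 1 without Y665H male replicate 3 or 4. Csf3r, the G-CSF receptor, rose by 1.02 (SE 0.16, adjusted p = 1.5e-06) in Y665F males and 0.60 (SE 0.18, adjusted p = 0.00743) in Y665F females by edgeR's test. Cxcr2, a chemokine receptor of mature neutrophils, had a difference of 0.76 (SE 0.33, adjusted p = 0.0535) in Y665F males and was not called in any of the 4 comparisons with WT. Its highest level in any liver was 0.596 CPM. Among 10 genes of neutrophil attraction and growth, 9 rose and 1 fell in Y665F males (5 of 8 tested rose in thinned libraries), and 5 rose in Y665F females. In Y665H males 3 rose, Cxcl12, Il17ra and the adhesion gene Icam1 (0.93, SE 0.12, adjusted p = 4.84e-06). In Y665H females Csf1 fell by 0.31 (SE 0.09, adjusted p = 0.0332), a call lost without WT female replicate 2 or 4 or Y665H female replicate 2, 3 or 4. Csf3, the G-CSF gene, had 98 counts over the Y665F females, with every liver between 0.268 and 1.00 CPM. WT females had 2 counts, both in 1 liver, and 5 livers were at 0. The edgeR log2 fold change was 5.48 (SE 0.69, adjusted p = 1.44e-07), a value that is no bound with so few WT counts. The chemokine gene Cxcl1 fell by 0.97 (SE 0.28, adjusted p = 0.00449) in Y665F males. Acute phase genes, 22 tested, rose for 13 and fell for 2 in Y665F males, rose for 9 in Y665H males, and 2 rose and 1 fell in Y665F females, a smaller share than that of all genes. The count of 9 was 5 without Y665H male replicate 3 and 1 without the 3 livers above 500 CPM of Saa1, and the count of 2 that fell in Y665F males was 1 without WT male replicate 2 or 4. Saa1 in Y665F males was called at 2.63 (SE 0.82, adjusted p = 0.00724), and without Y665F male replicate 2 it was 0.41 (adjusted p = 0.480). Lcn2 in Y665H males rose by 4.57 (SE 0.82, adjusted p = 0.000534), and without the 3 livers above 500 CPM of Saa1 the value was 1.06 (adjusted p = 0.322).

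Markers of other blood and liver cells moved beside the granule genes in Y665F mice. In Y665F males 12 of 12 Kupffer cell and macrophage genes, 8 of 8 monocyte genes, 12 of 13 T and NK cell genes, 7 of 7 B and precursor B cell genes and 6 of 7 megakaryocyte and platelet genes rose. In Y665F females 13 of 13 T and NK cell genes and 7 of 7 B cell genes rose, with 4 of 8 monocyte genes, 3 of 7 megakaryocyte genes (1 without Y665F female replicate 2) and 0 of 12 Kupffer cell genes. The monocyte list gene Fn1, fibronectin, fell there by 0.23 (SE 0.08, adjusted p = 0.0229), a call lost in thinned libraries and without WT female replicate 2 or 4. For the Kupffer cell genes 1 had an unadjusted p under 0.05, DESeq2 called 0, and a fit of the compared groups alone called 5. In Y665H mice, T and NK cell genes fell for 3 of 13 in males and 5 of 13 in females, and 4 of 12 Kupffer cell genes rose in males. These 3 counts depended on single livers. The T and NK cell count was 1 in males without WT replicate 4 or 5 or Y665H replicate 2 or 4. In females it was 1 without Y665H replicate 2, 2 without WT replicate 1 or Y665H replicate 4, and 3 without WT replicate 3 or Y665H replicate 1. The Kupffer cell count was 1 without WT male replicate 2 or Y665H male replicate 4, and 2 without WT male replicate 3, 4 or 6 or Y665H male replicate 2 or 3. Without the 3 livers above 500 CPM of Saa1 it was 1, and the T and NK cell count in males was 0, as it was in thinned libraries. In Y665H females edgeR called 0 of the 10 other late granule genes (1 at an unadjusted p under 0.05, 0 by DESeq2) and 0 of the 12 neutrophil surface genes (4 unadjusted, 1 by DESeq2). Summed T and NK cell CPM ran from 11.3 to 16.2 in WT males and 27.6 to 47.0 in Y665F males, and from 17.4 to 23.9 in WT females and 43.8 to 58.7 in Y665F females. Summed Kupffer cell CPM ran from 246 to 364 in WT males and 399 to 900 in Y665F males. Dntt, a gene of lymphoid precursors, was at 0.244 to 0.465 CPM in WT males and 2.29 to 8.35 CPM in Y665F males (edgeR log2 difference of 4.22 with an SE of 0.33, adjusted p = 6.36e-13). Of 14 proliferation genes, 11 rose and 1 fell in Y665F males and 3 rose in Y665F females (5 without WT female replicate 6, 2 without WT female replicate 3), with Mki67 at 2.49 (SE 0.29, adjusted p = 5.17e-09) and 1.73 (SE 0.31, adjusted p = 2.3e-05). Eosinophil, basophil and mast cell genes were too low for any of the 13 to be tested, at a summed 0.119 to 0.795 CPM over all livers. Of 6 erythroid genes tested, 2 fell in Y665F males, Alas2 by 2.76 (SE 0.12, adjusted p = 1.82e-19) and Car1 by 0.63 (SE 0.16, adjusted p = 0.00134), while 2 rose and 1 fell in Y665F females (1 rose without WT female replicate 2, 3, 4 or 6 or Y665F female replicate 1, 2, 3 or 4, and 0 fell without WT female replicate 1 or 6 or Y665F female replicate 6). Among globin genes, 2 counts of Hba-a1 were recorded over all 37 livers and the other 9 globin rows were at 0, so blood in the tissue could not be read from them. Hepatocyte genes were abundant in every liver, with Alb between 43802 and 198539 CPM. Of 9 hepatocyte genes tested, 1 (Alb) rose and 6 fell in Y665F males, and 2 (Alb and Tat) rose and 4 fell in Y665F females. In Y665H mice the monocyte, B cell, megakaryocyte, erythroid, proliferation and hepatocyte lists each had at most 1 gene called in either sex. The part of other cells in the granule gene levels was not tested.

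**Figure D5:**
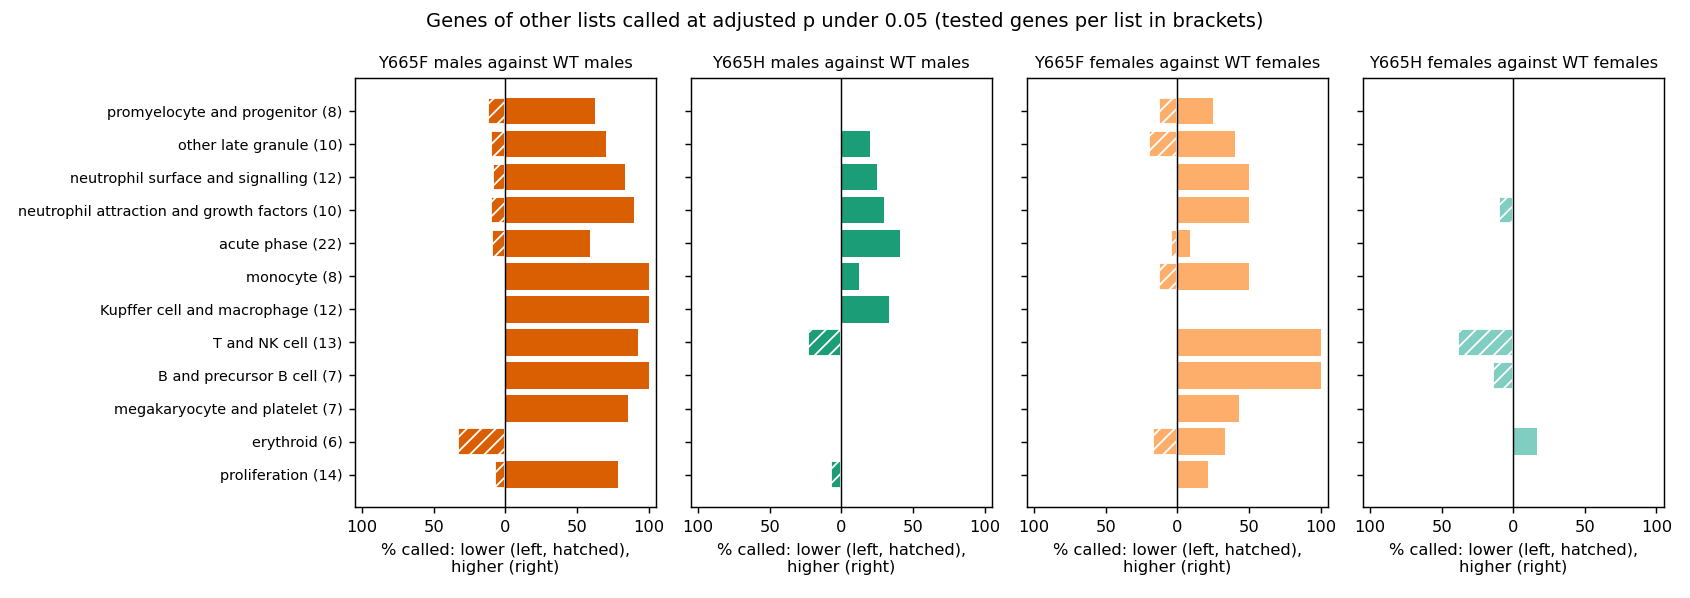
Share of the tested genes of each list called higher (bars to the right) or lower (hatched bars to the left) than WT of the same sex, in %, in a panel per mutant group. The number of tested genes stands beside each list. Most lists lean to higher in Y665F males and few genes are called in Y665H females.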

How the data were processed

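Total RNA of frozen liver was depleted of ribosomal RNA and sequenced as paired-end stranded libraries, per the labels' protocols. The authors deposited raw read counts per gene for each library. The submitters' processing notes list FastQC 0.11.9, Trimmomatic 0.36, STAR, SAMtools 1.9, Picard 2.9.2, HTSeq 0.9.1 and mm10. The annotation and strand setting are not given in the sources used here. Groups came from the sample titles. The 5 rows that name no gene, 32.4% to 49.9% of counted items, were left out.

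Counts were filtered (filterByExpr, minimum count 10 and minimum total 15), TMM-scaled and fitted over all 37 libraries with 1 mean per group by edgeR 4.0.16 (R 4.3.3), using the quasi-likelihood test and Benjamini-Hochberg adjustment over 15152 of 24421 genes. The method was tested on simulated data with changes placed only in genes above a mean of 1 CPM. That test does not cover the low counts of most members. Levels are CPM, and log2 CPM used a prior count of 2. Ratios of summed counts have exact 95% binomial intervals. Alternatives were DESeq2 1.42.0, its size factors, no filter, a robust prior, thinned libraries, a replicate block, fits of the compared groups alone and leaving out single libraries. Coordinates and exon lengths came from GENCODE M21, in which 95.7% of symbols matched.

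The members and lists were chosen with earlier results of these data known. Genes named outside the members were those at the ends of each list and a fixed set of markers. Where nothing says that livers of a group were separate litters or extractions, p-values measure only the spread between these samples.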

Additional observations from a re-analysis of the deposited data

Results flagged for a closer look

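Within groups of 4 to 10 livers, 18 of 87 combinations of gene and group held a liver whose gap to the next exceeded Dixon's 95% critical value. That value assumes normal data, while these are CPM of often low counts, mostly of genes chosen with their levels known. The count of 18 is therefore a list of livers to look at and is not set against chance. Y665F male replicate 2 accounted for 11 of them. Its levels, with the next highest Y665F male in parentheses, were 44.5 CPM for Prtn3 (0.734), 1.39 for Mpo (0.720) and 0.663 for Elane (0.264). They were 2.70 CPM for Ltf (1.01), 2.24 for Ngp (1.11), 0.679 for Camp (0.251) and 2.75 for S100a9 (1.50). The same liver stood apart for Lcn2 at 256 CPM (35.3), Saa1 at 874 CPM (35.2), Saa2 at 774 CPM (24.9) and Ctsg at 0.232 CPM (0.0660).

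Y665F female replicate 2 stood apart for Mpo at 0.931 CPM (next 0.244) and Camp at 0.499 CPM (next 0.210). WT female replicate 4 did so for Mpo at 0.329 CPM (next 0.0307) and Ctsg at 0.0253 CPM, a single count where the other WT females had 0. WT female replicate 5 had Prtn3 at 1.72 CPM (next 0.481), Y665H male replicate 3 had Mpo at 0.200 CPM (next 0.0287), and Y665H female replicate 2 had Lcn2 at 20.7 CPM (next 11.8).

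Some effects differed between the sexes by the interaction term. For Prtn3, chosen with its levels known, the Y665F effect was higher in males by 6.53 on the log2 scale, 3.06 without Y665F male replicate 2 and 5.55 without WT female replicate 5, and no p-value is given. By edgeR's quasi-likelihood test, for Lcn2 the difference was 3.59 for Y665F (adjusted p = 0.00604) and 5.38 for Y665H (adjusted p = 0.00386). The Y665H effect differed by 4.84 for Saa1 (adjusted p = 0.0195) and 6.31 for Saa2 (adjusted p = 0.00939), and the Y665H male levels of Lcn2, Saa1 and Saa2 rest on replicates 2 and 3. Lcn2 was at 81.0 and 91.0 CPM in these and at 3.95 and 3.94 CPM in replicates 1 and 4. In Y665F males the Lcn2 difference from WT was 4.64, or 3.47 without replicate 2.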

How the results depend on the processing

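Low counts limit these results, since the members together had 19 to 123 counts in a WT liver. In Y665F males 9 members were called, and 9 without any single liver. The count was 8 without the 3 livers above 500 CPM of Saa1. It was 6 in thinned libraries and with only the compared groups, where 6 and 7 members passed the filter. All genes called in either direction, 7955 in the main fit, were then 8137, 7104 and 8634 in the same order. Thinned libraries tested the same 6 members in every comparison, without Elane, Camp, Mmp8 and Retnlg. In Y665H males the 2 calls became 1 with no filter, with a robust prior and with only the compared groups (3 tested, without Elane). They became 0 in thinned libraries, 0 without the 3 livers above 500 CPM of Saa1 (chosen after seeing the data) and 4 by DESeq2. Without single livers they were 0 to 2. All genes called, 1273 in the main fit, were 1097, 1244, 2186, 886, 386 and 1639 in these 6 fits, in the order named. In Y665F females the 3 calls became 2 to 5 without single livers, 5 without WT female replicate 4. Fits of only the compared groups among females, or of WT females against males, tested S100a9 alone, so their counts of 0 say nothing of the calls. DESeq2 called 2 in Y665H females, and 1414 of all genes where edgeR called 1136. Between the substitutions, thinning gave 3 in each sex, and single omissions 4 to 6 in males and 3 to 7 in females. By thinning, all genes called went from 6319 to 5624 in males and from 8564 to 7702 in females. Between WT females and males the 2 calls became 1 by thinning, 5 by DESeq2 and 1 to 2 without single livers. All genes called, 7537 in the main fit, were 6804 by thinning and 7648 by DESeq2. For the sex difference of Y665F, DESeq2 called 5 and single omissions gave 0 to 4. Of all genes DESeq2 called 4349 there and edgeR 4190. For the sex difference of Y665H the compared groups alone (3 tested) and DESeq2 each gave 1, and single omissions 0 to 2. All genes called, 794 in the main fit, were 592 with the compared groups alone and 1252 by DESeq2. Early minus late in Y665H males, 1.34, was 0.63 without Prtn3, 0.78 without the 3 livers and 1.08 to 1.57 without single livers. In Y665F females, -0.63, it was -1.09 without S100a8, S100a9 and Retnlg.

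Genes not called changed sign in a few settings. Cebpe in Y665H males was -0.00322 with DESeq2's size factors and in DESeq2, -0.085 after thinning and -0.043 to 0.055 without single livers. Cxcr2 was -0.12 in Y665H males without the 3 livers and -0.15 to 0.83 in Y665F females. In Y665H females Cxcl1 was -0.14 to 0.41 and Mki67 -0.075 to 0.69. The causes were not tested.

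Replicate numbers did not pair the livers: over 32 same-numbered pairs r ran from -0.23 to 0.15. With the replicate block, counts of members called were 4 for the sex difference of Y665F and 2 for that of Y665H, and 9, 2, 3 and 0 in the comparisons with WT. All genes called with the block were 3418 and 414, and 7023, 664, 5831 and 785, in the same order. Saa1 in Y665F males was 1.00 with the block (edgeR adjusted p = 0.253).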
